A study of Homo sapiens with 12 samples.

Results

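The genes described here were 40 immediate early genes, chosen by name before any filter on level, and every probe that the array annotation gives to one of them was read. Probes were found for 38 of the 40, among 20046 named genes on the array, and EGR2 and BTG2 are not analysed here. The 38 genes had 56 probes, and 41 of those probes were detected on at least 2 of the 12 arrays. Detection left 32 members in the test, within a table of 12323 genes. The brightest of a gene's detected probes stood for it.

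Immediate early genes are transcribed within minutes of a growth factor, calcium signal or stress, without new protein synthesis, from transcription factors such as SRF with its ternary complex partners and CREB that are already present in the cell. Many encode transcription factors (the FOS, JUN, EGR, KLF and NR4A families), and others encode inhibitors that shut the signal off again, such as the dual-specificity phosphatases (DUSP) and the Sprouty proteins (SPRY). Their transcripts are short-lived as a rule, and in neuronal cells they are widely used as a record of recent activity.

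The cells were BE(2)-C, an established human neuroblastoma line, grown in DMEM with 10% serum. Every culture was transfected with 2 µg of plasmid by effectene, a lipid reagent, and carried either pTRex-GRHL1 or the empty vector pTRex-Dest30, so that transfection itself was shared by both groups. GRHL1 encodes a grainyhead-like transcription factor. RNA was taken 24, 48 and 72 h later and hybridised to Illumina BeadChips, giving 2 arrays per plasmid and time. No untransfected cells and no earlier time were analysed here, so a level at 24 h has no value before transfection to be set against. In a transient transfection only some cells take up the plasmid, their share is not stated in the labels, and the RNA of all cells was read together. In such bulk RNA, fewer cells expressing a gene and less RNA per cell cannot be told apart. Whether the replicates came from separate cultures is not said in the labels, so the p-values reflect no more than the spread between these arrays, which may be technical.

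The transfected gene was read first. Of its 3 probes 1 was detected on the 6 GRHL1 arrays, and it gave 9111 and 12964 intensity units in GRHL1 cells at 24 h, 6225 and 4669 at 48 h, then 5968 and 5459 at 72 h, whereas it read between 92.3 and 122.8 on the 6 empty vector arrays, all below the detection limit of 128.5 units. The other 2 probes of GRHL1 were each detected on 1 array and showed no such rise, with group means from 120.8 to 127.9 and from 96.9 to 113.7 units. Of 13 adrenergic neuroblastoma markers 12 had a probe, and each of the 12 was detected on all 12 arrays, MYCN among them at 23908 to 27005 units. Leukocyte markers PTPRC and CD3E, endothelial PECAM1, CDH5, VWF and KDR, and Schwann cell SOX10 and S100B were detected on 0 arrays. Of the same lists CD14 (179.3 to 235.1 units) and CD68 (358.4 to 511.3), named with the leukocytes, were detected on all 12 arrays and ERBB3, named with Schwann cells, on 11. Epithelial KRT19 was detected on all 12 (198.8 to 263.0), KRT5, KRT14 and CDH1 on 0. Fibroblast LUM, DCN and PDGFRB were detected on all 12 arrays, while COL3A1 was detected on 0. The sample names of a second deposited table, holding scanner values, conflicted with those used here for 7 arrays, all at 48 or 72 h, and the 4 arrays of 24 h carried the same name in both. Under the scanner names the detected GRHL1 probe read 92.3, 103.3 and 103.9 units on arrays called GRHL1 at 48 or 72 h. It read 4669, 5968 and 5459 on arrays called empty vector at those times, so the scanner names do not follow the transfected gene.

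To show what lies upstream of the members on which the results turn, the 250 bases before the RefSeq start of FOS, KLF2 and KLF6, the 3 members called by a test, and of EGR1 are given 5′ to 3′ on the gene's strand. The positions, in GRCh38.p14, are chr14:75278578-75278827 on the plus strand for FOS, chr5:138465229-138465478 on the plus strand for EGR1, chr19:16324576-16324825 on the plus strand for KLF2 and chr10:3785210-3785459 on the minus strand for KLF6. Capitals mark matches on either strand to the CArG box (the SRF site), the TATA box (TATAAA) and the GC box (GGGCGG, bound by Sp1-type factors).
FOS: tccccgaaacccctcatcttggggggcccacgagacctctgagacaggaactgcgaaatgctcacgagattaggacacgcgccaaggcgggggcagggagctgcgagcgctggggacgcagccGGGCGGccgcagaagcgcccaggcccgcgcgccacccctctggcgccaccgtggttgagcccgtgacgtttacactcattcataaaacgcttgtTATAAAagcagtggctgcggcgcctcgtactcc
EGR1: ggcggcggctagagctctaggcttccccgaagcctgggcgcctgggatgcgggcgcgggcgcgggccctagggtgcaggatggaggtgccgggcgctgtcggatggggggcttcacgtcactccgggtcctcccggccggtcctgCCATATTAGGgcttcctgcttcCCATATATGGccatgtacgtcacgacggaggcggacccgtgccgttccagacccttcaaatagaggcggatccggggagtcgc
KLF2: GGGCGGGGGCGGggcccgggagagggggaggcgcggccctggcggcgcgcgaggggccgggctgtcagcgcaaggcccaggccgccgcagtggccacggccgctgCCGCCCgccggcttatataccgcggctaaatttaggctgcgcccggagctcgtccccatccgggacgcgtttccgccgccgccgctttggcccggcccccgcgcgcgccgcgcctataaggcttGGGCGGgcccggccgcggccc
KLF6: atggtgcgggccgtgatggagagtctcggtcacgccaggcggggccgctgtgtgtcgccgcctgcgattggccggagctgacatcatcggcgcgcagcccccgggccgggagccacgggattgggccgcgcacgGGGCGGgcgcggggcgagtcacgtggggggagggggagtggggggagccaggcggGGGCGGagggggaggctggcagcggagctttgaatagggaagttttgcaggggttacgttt
The EGR1 window held a pair of CArG boxes, from 105 to 96 and from 83 to 74 bases before the start, while the FOS window held a TATA box 33 to 28 bases before it and a single GC box. KLF2 had 4 GC boxes, 2 of which adjoin, and KLF6 had 2. RefSeq promoter windows of 300 bases (250 before and 50 after the start) were found for 29 of the 40 members and for 27305 genes in all. CArG boxes lay in 2 of the 29 (EGR1 and SRF, 6.90%) against 1.29% of all windows. The cyclic AMP response element TGACGTCA lay in 3 (DUSP1, JUND and MAFF, 10.3%) against 1.98%, the TATA box in 7 (24.1%) against 12% and the GC box in 23 (79.3%) against 44.6%. The AP-1 site TGANTCA lay in 1 (FOSL2, 3.45%) against 7.76%, and the grainyhead site AACCGGTT in 0 against 0.117%. Both strands were searched, and a match describes the letters in the window and no binding. Sites outside the windows were not searched, so a gene without a match, such as FOS for the CArG box, may have one further off.

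The members differed in how far they were measured. For 27 of the 32 tested members the probe was detected on all 12 arrays, and for 5 on fewer: FOS, KLF4 and DUSP6 on 11 and FOSB and NR4A2 on 5. The 6 members that were not tested were FOSL1, EGR3, EGR4, NR4A1, NR4A3 and CCN1, with each probe detected on at most 1 array. EGR4 lay between 94.6 and 122.2 units and CCN1, a matricellular protein, between 93.2 and 113.2, and neither was detectable at this signal in any group. NR4A2, the orphan nuclear receptor of dopaminergic neurons, lay between 111.2 and 143.7 and FOSB between 102.7 and 146.7, so that their readings straddled the limit. The ratio of the highest to the lowest array of a member ran from 1.14 for BTG1, an antiproliferative adaptor of mRNA deadenylation, to 2.78 for EGR1, a zinc finger factor.

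**Figure D1:**
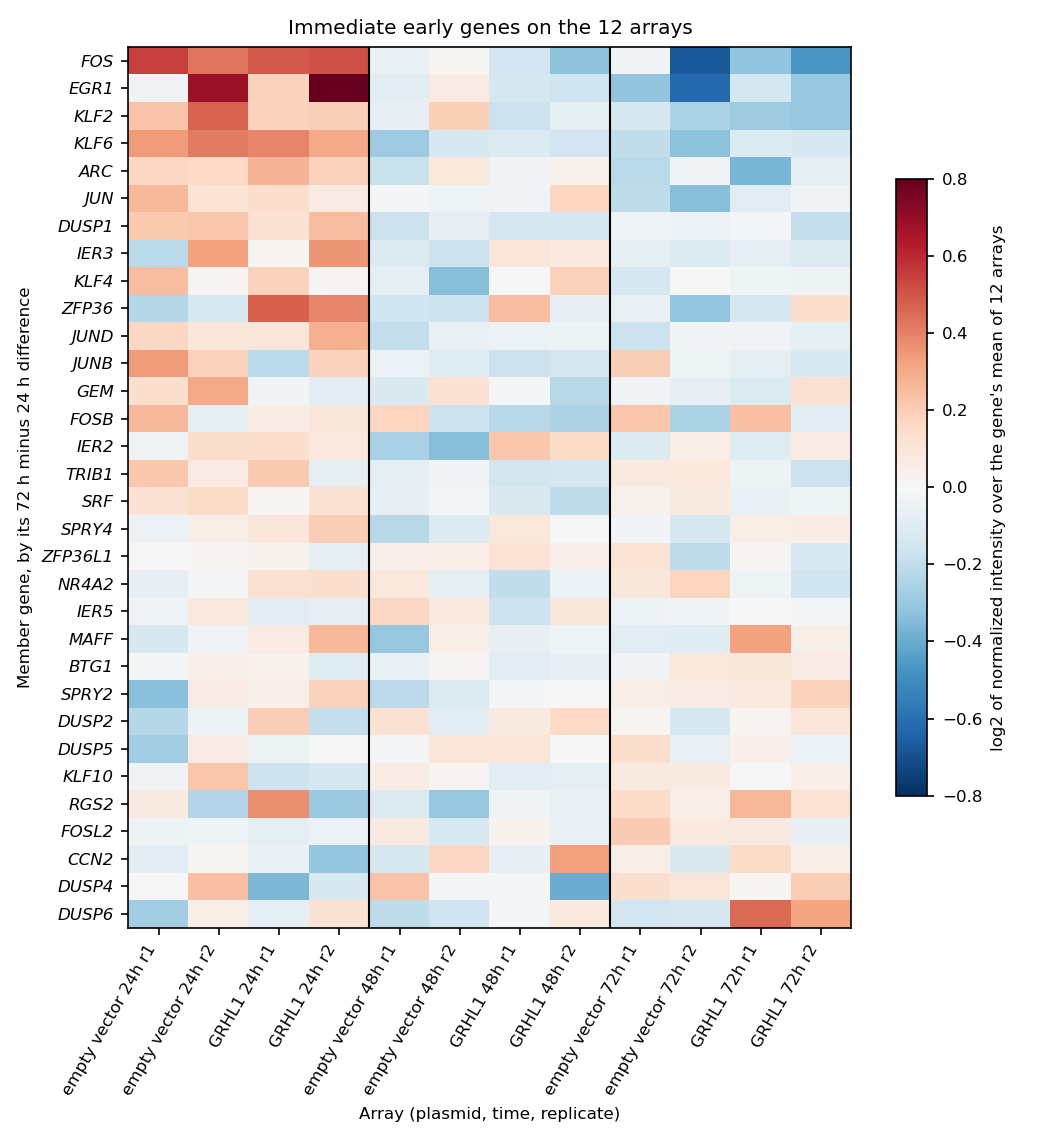
Each row is a tested member and each column 1 of the 12 arrays, in order of time and plasmid, and colour gives the log2 of the normalized intensity over the gene's mean of the 12 arrays. Rows run from the lowest to the highest 72 h minus 24 h difference. In the top row FOS is above its mean on all 4 arrays of 24 h (227.4 to 247.3 units) and below it on all 4 arrays of 72 h (106.3 to 166.7 units).

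The first comparison asked which members changed with time after transfection, over both plasmids (4 arrays a time). At 72 h FOS, KLF2 and KLF6 had fallen from their 24 h level, and KLF6 had already fallen at 48 h. No tested member was called higher at 48 or 72 h. Differences are on the log2 scale of background-corrected intensity with their standard error (SE), tested with limma and called where the p adjusted by Benjamini-Hochberg over the 12323 genes was under 0.05.

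FOS, the leucine zipper partner of JUN in the AP-1 factor, read 247.3 and 227.4 units in empty vector cells and 237.1 and 242.0 in GRHL1 cells at 24 h. At 48 h it read 162.7 and 171.0 with empty vector and 151.8 and 135.5 with GRHL1. At 72 h it read 166.7 and 106.3 with empty vector and 136.0 and 122.3 with GRHL1. All 4 arrays of 24 h lay above all 8 later arrays, and at 72 h only 2 of 4 arrays were above the detection limit. The mean intensity was 238.4 ± 8.43 (SD, n = 4) at 24 h, 155.3 ± 15.4 at 48 h and 132.8 ± 25.6 at 72 h. FOS fell by 1.45 ± 0.24 (SE) from 24 to 72 h (limma adjusted p = 0.0225), with -1.42 in empty vector cells and -1.49 in GRHL1 cells. The 48 h difference of -0.97 ± 0.24 was not called (limma adjusted p = 0.122). FOS lay near the background. The 72 h call stayed without background correction, where the difference was -0.79 (limma adjusted p = 1.74e-05). The call was lost when any of 6 arrays was left out, namely any of the 4 arrays of 24 h or either GRHL1 array of 72 h (limma adjusted p from 0.0518 to 0.0934). It was also lost when only the 24 and 72 h arrays were fitted (limma adjusted p = 0.0892) and without the detection filter (limma adjusted p = 0.083). Left out in turn, the empty vector arrays of 72 h moved the value to -1.79 and -1.12.

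KLF6, a Krüppel-like zinc finger factor, fell by 0.55 ± 0.07 from 24 to 48 h (limma adjusted p = 0.0119) and by 0.57 ± 0.07 to 72 h (limma adjusted p = 0.0101). At 24 h the empty vector arrays read 3073 and 3233 and the GRHL1 arrays 3177 and 2996. The corresponding readings were 1986, 2220, 2246 and 2182 at 48 h and 2119, 1934, 2250 and 2221 at 72 h. The 24 h arrays stood clear of all later ones, and the later times overlapped each other, with a 72 h minus 48 h difference of -0.02 ± 0.07. Mean intensity was 3120 ± 106 (SD, n = 4) at 24 h, 2158 ± 118 at 48 h and 2131 ± 143 at 72 h. Within a plasmid the 72 h minus 24 h difference was -0.66 ± 0.10 with empty vector and -0.48 ± 0.10 with GRHL1, neither of them called (limma adjusted p = 0.0841 and 0.121). The 72 h call remained with each single array left out. The 48 h call was lost without replicate 2 of empty vector or replicate 1 of GRHL1 at 24 h, and without replicate 1 of empty vector or either replicate of GRHL1 at 48 h (limma adjusted p from 0.0529 to 0.0619). Without the detection filter neither was called (limma adjusted p = 0.0647 at 48 h and 0.0579 at 72 h).

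KLF2, the related factor best known from endothelium and quiescent lymphocytes, read 745.7 and 881.0 in empty vector cells and 721.5 and 725.0 in GRHL1 cells at 24 h. At 48 h the readings were 608.2 and 726.7 with empty vector and 565.3 and 604.3 with GRHL1, and at 72 h they were 581.7 and 534.4 with empty vector and 522.1 and 516.2 with GRHL1. The 24 h and 72 h arrays did not overlap, while at 48 h an empty vector array reached into the range of 24 h. The level went from 768.3 ± 75.9 (SD, n = 4) to 626.1 ± 69.8 and 538.6 ± 29.7. KLF2 fell by 0.57 ± 0.09 from 24 to 72 h (limma adjusted p = 0.0202), and the 48 h difference was -0.33 ± 0.09 (limma adjusted p = 0.168). Its call was lost without any of 7 arrays, which were replicate 2 of empty vector and both replicates of GRHL1 at 24 h and all 4 arrays of 72 h (limma adjusted p from 0.0522 to 0.085). With the compared arrays alone the limma adjusted p was 0.0625, without the detection filter it was 0.0856, and with the scanner table's names it was 0.0648.

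**Figure D2:**
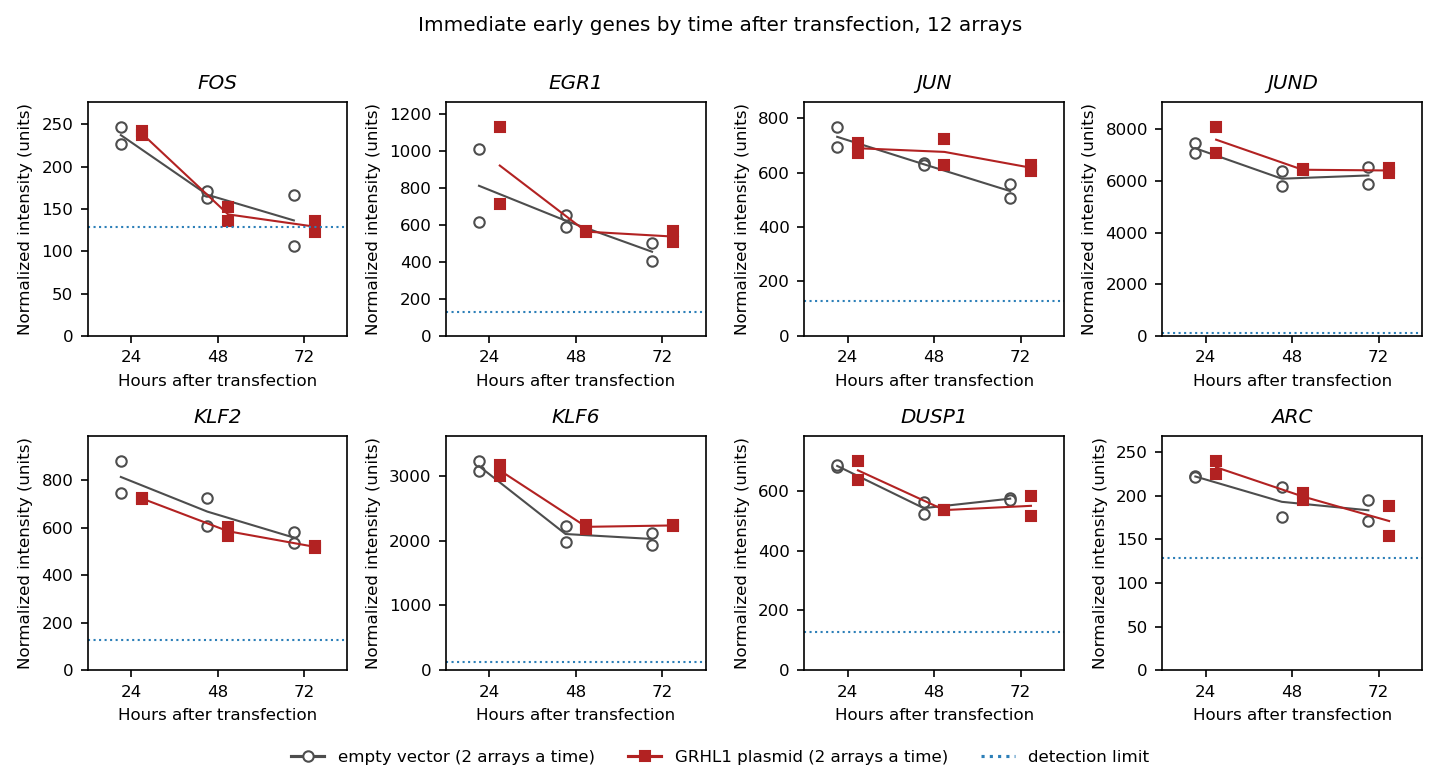
Points are single arrays (normalized intensity in units, linear axis from 0) of 8 members at 24, 48 and 72 h, open circles for empty vector and filled squares for GRHL1 plasmid, lines join group means, and the dotted line is the detection limit of 128.5 units. In FOS, JUN, JUND, EGR1, KLF2, KLF6, DUSP1 and ARC all 4 arrays of 24 h lie above all 4 of 72 h, and of these FOS, KLF2 and KLF6 were called.

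EGR1, JUN and ARC had the next smallest p for 72 h against 24 h and were not called. EGR1 read 612.6 and 1009 units in empty vector cells and 710.4 and 1130 in GRHL1 cells at 24 h, 589.9, 655.3, 566.5 and 559.7 in that order at 48 h, and 502.1, 407.0, 566.9 and 506.4 at 72 h. All arrays of 72 h were below all of 24 h, but replicate 2 was far above replicate 1 at 24 h with both plasmids, by 0.79 and 0.73 on the log2 scale. The 72 h minus 24 h difference was -0.86 ± 0.19 (limma adjusted p = 0.0876). At the same time IER3, a survival and stress response gene, showed replicate 2 above replicate 1 by 0.84 and 0.50, and DUSP6, the cytoplasmic ERK phosphatase, by 0.69 and 0.37. Replicate 2 was also higher with both plasmids for DUSP4 (0.36 and 0.39), SPRY2 (0.43 and 0.15), MAFF (0.19 and 0.32) and SPRY4 (0.10 and 0.11). The same held for KLF10, DUSP5, KLF2, IER5, NR4A2, DUSP1, SRF and FOSL2, by 0.07 or less with at least 1 of the plasmids. Replicate 2 lay below replicate 1 with both plasmids for RGS2 (-0.35 and -0.76), KLF4 (-0.36 and -0.28), TRIB1 (-0.16 and -0.31) and JUN (-0.16 and -0.08). IER3, the further members with replicate 2 higher and those that went the other way were singled out after their values were seen. What set the replicates apart at 24 h was not tested.

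JUN, which pairs with FOS in AP-1, read 768.4 and 693.9 with empty vector and 707.2 and 671.4 with GRHL1 at 24 h, 635.3, 625.9, 628.8 and 722.8 at 48 h and 557.4, 506.2, 606.4 and 629.0 at 72 h. Its 24 h and 72 h arrays did not overlap, and a GRHL1 array of 48 h lay within the range of 24 h. The difference was -0.34 ± 0.08 (limma adjusted p = 0.0908). ARC, the activity-regulated cytoskeletal gene of synapses, read 222.9, 221.7, 240.2 and 225.6 at 24 h, 175.6, 210.8, 195.2 and 203.6 at 48 h and 171.4, 195.6, 154.2 and 188.1 at 72 h, empty vector first. All 8 later arrays were below the 4 arrays of 24 h. Its 72 h difference was -0.55 ± 0.13 (limma adjusted p = 0.0981). Without background correction it was -0.34 ± 0.07 and was called (limma adjusted p = 0.0127). EGR1 (-0.75, limma adjusted p = 0.00151) and JUN (-0.30, limma adjusted p = 0.0141) were also called in that setting. With probes detected on all 12 arrays EGR1, JUN and ARC were called (limma adjusted p = 0.0309, 0.038 and 0.037). With quantile scaling, without the detection filter and with the compared arrays alone none of them was.

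Over the 32 tested members 1 was called lower and 0 higher at 48 h, against 0.292% and 0.227% of all genes, and 3 were called lower and 0 higher at 72 h, against 0.365% and 0.503% of all genes. Between 48 and 72 h 0 members were called, where 0.0243% of all genes were, and 3 had an unadjusted p under 0.05 (JUN and KLF2 lower, DUSP6 higher) against 8.29%. The differences leaned below 0 at 48 h in 24 of 32 members (48.4% of all genes), with a median of -0.20 (0.01 over all genes), and at 72 h in 20 of 32 (46.8% of all genes), with a median of -0.11 (0.01 over all genes). At an unadjusted p under 0.05 there were 10 members at 48 h and 9 at 72 h, all lower, against 6.41% and 6.60% of all genes lower. Groups without overlap, lower than 24 h, were found for 6 members at 48 h (FOS, JUND, KLF6, DUSP1, ARC and SRF) against 4.47% of all genes. At 72 h there were 9 (FOS, JUN, JUND, EGR1, KLF2, KLF4, KLF6, DUSP1 and ARC) against 4.54%. In the other direction only ZFP36L1 at 48 h had no overlap (3.87% of all genes), with a difference of 0.11 ± 0.11, and at 72 h there were 0 (4.35% of all genes). The 48 h and 72 h comparisons share the arrays of 24 h, so the counts are not separate. All members read on the same arrays also share whatever sets those arrays apart.

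By role, the factors of the FOS family other than FOS had no called member, with FOSB at -0.13 ± 0.27 and FOSL2 at 0.22 ± 0.10 for 72 h against 24 h. JUND gave -0.24 ± 0.07 and JUNB -0.17 ± 0.12. Of the Krüppel-like factors KLF4 gave -0.29 ± 0.14 and KLF10 0.15 ± 0.09. The nuclear phosphatase DUSP1, which inactivates p38 and JNK, gave -0.37 ± 0.07 at 48 h (limma adjusted p = 0.0728) and -0.30 ± 0.07 at 72 h (limma adjusted p = 0.111). Its relatives gave 0.13 ± 0.15 (DUSP2), 0.27 ± 0.16 (DUSP4), 0.13 ± 0.12 (DUSP5) and 0.30 ± 0.15 (DUSP6) at 72 h. Among feedback inhibitors of receptor signalling SPRY2 gave 0.11 ± 0.10 and SPRY4 -0.09 ± 0.07. SRF itself, the factor that binds CArG boxes, gave -0.21 ± 0.06 at 48 h (limma adjusted p = 0.208) and -0.10 ± 0.06 at 72 h. The remaining members at 72 h lay between -0.29 (IER3) and 0.24 (CCN2, a secreted matricellular protein and target of SRF and YAP). None of the values in this paragraph passed the test, and DUSP1 was the nearest to it.

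Within a plasmid, with 2 arrays against 2, no member was called in any of the 6 comparisons of times, where limma called between 0 and 26 of all 12323 genes. These were 0.00811% of genes from 24 to 48 h, 0.0568% from 24 to 72 h and 0% from 48 to 72 h with empty vector, and 0.0974%, 0.211% and 0% with GRHL1. From 24 to 72 h 8 members had an unadjusted p under 0.05 in empty vector cells and 12 in GRHL1 cells, against 10.7% and 10.9% of all genes. From 24 to 48 h there were 8 and 9, against 10.0% and 9.85% of all genes. From 48 to 72 h there were 3 and 1, against 5.28% and 7.21%. FOS in empty vector cells had a 72 h minus 24 h difference of -1.42 ± 0.33 (limma adjusted p = 0.229), and in GRHL1 cells -1.49 ± 0.33 (limma adjusted p = 0.159), so that both plasmids gave like values without a call of their own.

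The second comparison asked whether the members differed between GRHL1 and empty vector cells. None of the 32 was called, over the 3 times together or at any single time. Limma called 1.71% of all genes in the mean of the times (211 of 12323), 0.381% at 24 h, 0.446% at 48 h and 0.325% at 72 h. In the mean 16 members were above and 16 below 0, with a median of 0.01 (-0.01 over all genes) and a range from -0.35 (DUSP4) to 0.53 (DUSP6). At an unadjusted p under 0.05 there were 5 members higher and 4 lower, against 6.51% and 5.70% of all genes, and at the single times there were 5, 2 and 2, against 8.76%, 8.29% and 7.45% of all genes in either direction. At all 3 times SPRY4 was higher on both GRHL1 arrays than on both empty vector arrays (2.78% of all genes), and KLF2 and KLF10 were lower (1.63% of all genes).

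**Figure D3:**
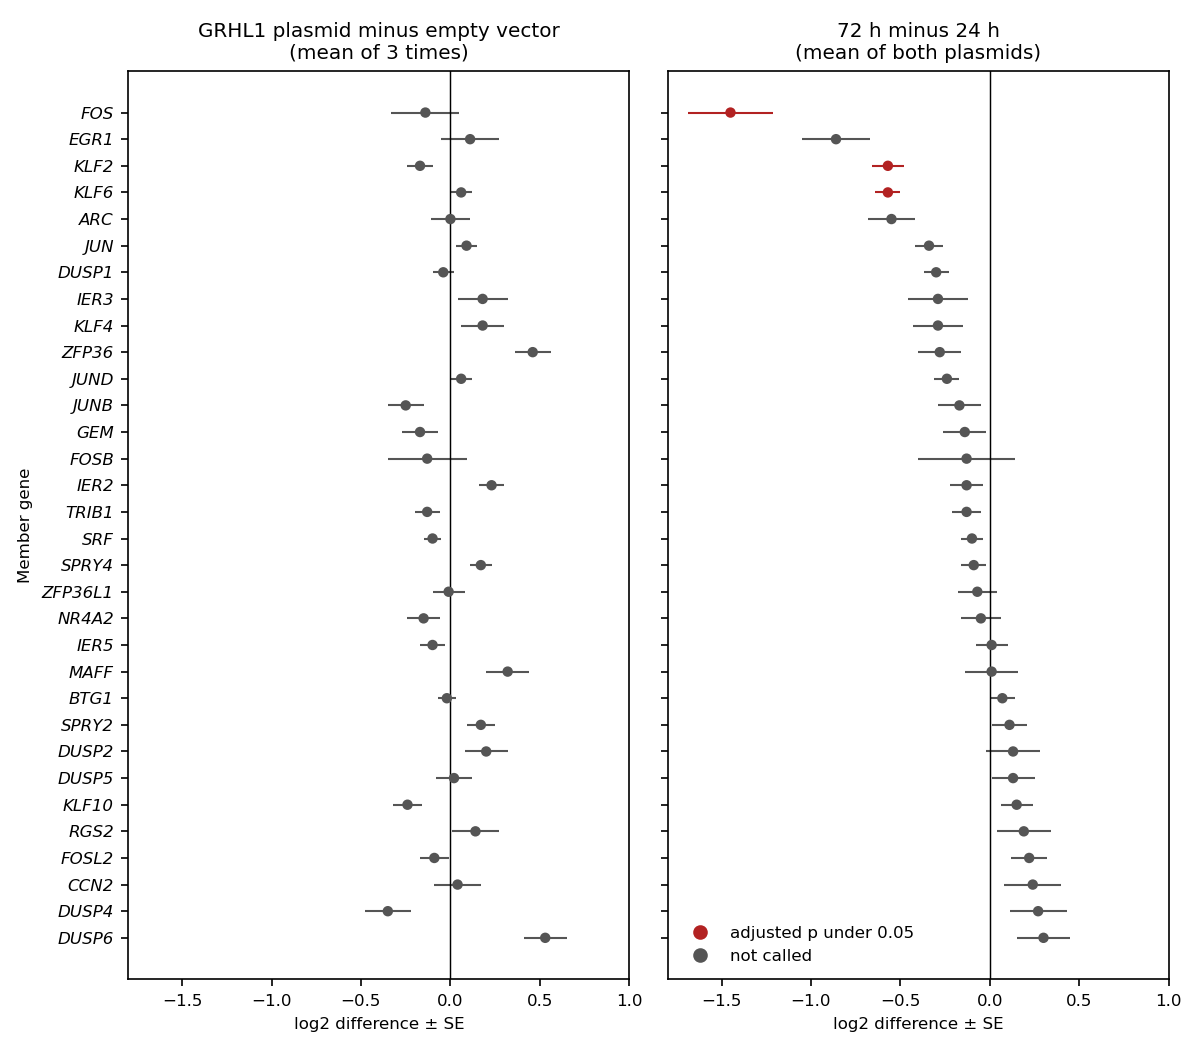
Log2 differences of background-corrected intensity with their SE (horizontal bars) for the 32 tested members, in the order of the 72 h minus 24 h difference, for GRHL1 plasmid minus empty vector on the left and 72 h minus 24 h on the right. The points for FOS, KLF2 and KLF6 on the right are the called ones, and on the left the values run from -0.35 to 0.53 with none called.

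ZFP36, or tristetraprolin, which binds AU-rich elements and speeds the decay of short-lived mRNAs, had the smallest p of the members in the mean of the times. At 24 h it read 227.0 and 244.6 with empty vector and 370.0 and 349.3 with GRHL1. At 48 h the readings were 238.3 and 237.7 against 315.5 and 254.3, and at 72 h 255.1 and 215.0 against 242.0 and 290.9. The empty vector arrays held between 215.0 and 255.1 at every time, and the GRHL1 arrays were clear of them at 24 and 48 h but not at 72 h. The mean difference was 0.46 ± 0.10 (limma adjusted p = 0.06), and that at 24 h was 0.80 ± 0.17 (limma adjusted p = 0.114). Without replicate 2 of GRHL1 at 48 h the mean became 0.52 and was called (limma adjusted p = 0.0451), and with the scanner table's names it was 0.23.

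DUSP6, which is itself induced by ERK signalling, read 121.2 and 152.5 with empty vector and 139.5 and 159.7 with GRHL1 at 24 h, 128.2 and 132.1 against 146.1 and 155.7 at 48 h and 132.4 and 134.0 against 202.0 and 183.0 at 72 h. The plasmids overlapped at 24 h and were apart at 48 and 72 h, on readings close to the limit: 4 of 6 empty vector arrays and 6 of 6 GRHL1 arrays lay above it. The mean difference was 0.53 ± 0.12 (limma adjusted p = 0.0684). Without background correction it was smaller, at 0.26 ± 0.06, but was called (limma adjusted p = 0.0113). With the correction the difference at 72 h was 0.91 ± 0.21 (limma adjusted p = 0.187). Without replicate 2 of empty vector at 24 h the mean was 0.64 and was called (limma adjusted p = 0.0077). With the scanner table's names the difference was -0.22. Those names do not follow the transfected gene, and the direction of the DUSP6 difference rests on the names of the normalized table.

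IER2, a nuclear early response gene, read 311.0 and 349.3 with empty vector and 347.9 and 334.2 with GRHL1 at 24 h, 264.2 and 250.2 against 367.9 and 350.8 at 48 h and 293.0 and 328.7 against 295.7 and 330.8 at 72 h. The groups were apart at 48 h alone, where the empty vector arrays were the lowest of all 12. The difference there was 0.61 ± 0.12 (limma adjusted p = 0.0848), and in the mean of the times it was 0.23 ± 0.07 (limma adjusted p = 0.184). With the scanner table's names, which differ at 48 and 72 h, the mean was -0.01.

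For MAFF, a small MAF leucine zipper factor, the readings were 158.2, 169.5, 181.0 and 208.4 at 24 h, 140.2, 178.6, 165.3 and 169.0 at 48 h and 162.9, 162.0, 216.4 and 178.4 at 72 h, empty vector first. The plasmids overlapped at 48 h. Its mean difference was 0.32 ± 0.12 (limma adjusted p = 0.293), and with the scanner table's names the mean was 0.07. Its other detected probe gave -0.01, on readings that straddled the detection limit (109.5 to 149.7 units, detected on 3 arrays).

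SPRY4, an inhibitor of RAS-ERK signalling, read 1377 and 1468 with empty vector and 1513 and 1631 with GRHL1 at 24 h, 1218 and 1318 against 1504 and 1417 at 48 h and 1400 and 1303 against 1471 and 1480 at 72 h. Both GRHL1 arrays were the higher ones each time. The difference was 0.17 ± 0.06 (limma adjusted p = 0.248), but the other 3 detected probes of the gene gave -0.13, -0.27 and -0.15, and the mean of its probes gave -0.10. Of these the probes at -0.13 and -0.27 straddled the detection limit (104.5 to 136.1 and 102.2 to 148.3 units). The probe at -0.15 was detected on all 12 arrays (194.0 to 255.8 units). The probes of SPRY4 thus disagree in direction, in part on readings near the background. With the scanner table's names the difference was 0.03.

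KLF10, a TGF-beta-inducible repressor, read 162.9 and 194.3 with empty vector and 148.1 and 151.0 with GRHL1 at 24 h, 173.3 and 168.6 against 156.8 and 157.5 at 48 h and 175.1 and 174.9 against 166.1 and 172.3 at 72 h. The empty vector arrays were above the GRHL1 arrays at each time, most widely at 24 h. For the plasmid difference the gene's other detected probes gave 0.01 (101.7 to 145.5 units, straddling the limit) and 0.00 (146.2 to 175.7 units). The difference of the brightest probe was -0.24 ± 0.08 (limma adjusted p = 0.202). With the scanner table's names it was -0.14. Without replicate 1 of empty vector at 24 h it was -0.31 and was called (limma adjusted p = 0.0409).

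**Figure D4:**
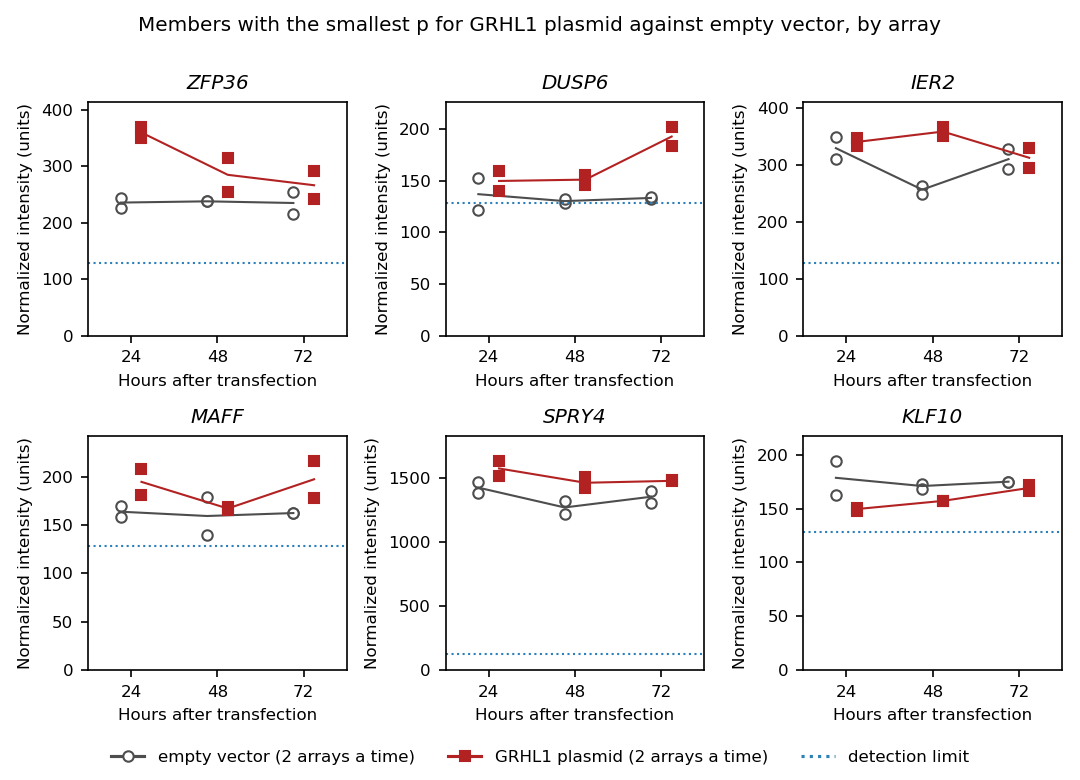
Single arrays (normalized intensity in units, linear axis from 0) of the 6 members with the smallest p for GRHL1 plasmid against empty vector at 24, 48 and 72 h, open circles for empty vector and filled squares for GRHL1 plasmid, lines join group means, and the dotted line is the detection limit of 128.5 units. ZFP36 is apart at 24 h (370.0 and 349.3 against 227.0 and 244.6) and IER2 at 48 h (367.9 and 350.8 against 264.2 and 250.2), and none of the 6 was called.

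Members called with time gave small differences between plasmids, with FOS at -0.14 ± 0.19, KLF2 at -0.17 ± 0.07 and KLF6 at 0.06 ± 0.06 in the mean of the times. For EGR1 it was 0.11 ± 0.16 and for JUN 0.09 ± 0.06. Whether the plasmid difference changed with time was tested for each gene with limma's F test. None of the 32 members and 1 of 12323 genes (0.00811%) was called. At an unadjusted p under 0.05 there were 2 members, NR4A2 (limma adjusted p = 0.824) and IER2 (limma adjusted p = 0.839), against 5.39% of all genes. NR4A2 read 138.6 and 139.1 with GRHL1 at 24 h and 135.3 and 143.7 with empty vector at 72 h. Both arrays of the other plasmid lay below the detection limit at those times.

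Other genes of the same pathways were read from lists of related genes. Of 38 tested immediate early and delayed early genes outside the 40, 0 were called higher and 2 lower at 48 h against 24 h, where 0.227% and 0.292% of all genes were. These were PPP1R15A, the stress-induced phosphatase subunit also named GADD34 (-0.50 ± 0.07, limma adjusted p = 0.0141), and BHLHE40, a clock-linked repressor (-0.65 ± 0.10, limma adjusted p = 0.0307). At 72 h 4 were lower and 0 higher, against 0.365% and 0.503% of all genes, the same pair with VGF, a neuropeptide precursor (-0.59 ± 0.09, limma adjusted p = 0.0186), and NPAS4, the calcium-induced factor of neurons (-0.80 ± 0.13, limma adjusted p = 0.0196). VGF went from group means of 9322 (empty vector) and 9375 (GRHL1) at 24 h to 6342 and 6086 at 72 h. NPAS4, nearer the limit, went from 170.4 and 153.7 to 127.2 and 115.0, both below it, and was detected on 2 of 4 arrays at 72 h, so the size of its difference is not measured exactly. The list's median was -0.18 at 48 h and -0.15 at 72 h, with 31 and 28 of 38 members below 0, against 48.4% and 46.8% of all genes. Between plasmids 3 of the 38 rose with GRHL1 and 0 fell, against 1.71% of all genes called in either direction, with a list median of 0.05. They were CEBPD, a C/EBP factor of the acute phase response (1.05 ± 0.13, limma adjusted p = 0.00228), NFIL3, a basic leucine zipper repressor (0.51 ± 0.09, limma adjusted p = 0.0281), and CSRNP1, an axin-induced nuclear protein (0.48 ± 0.10, limma adjusted p = 0.0382). CEBPD was detected on 2 of 4 arrays at each time, with readings from 98.3 to 162.3 units at 24 h and 99.9 to 174.3 at 72 h. Its empty vector means at 24, 48 and 72 h were 107.7, 120.3 and 106.5 units, all below the limit. With GRHL1 they were 157.1, 153.0 and 162.3, so its difference was taken against a group not measured above background. NFIL3 was detected on 3 of 4 arrays at 48 h (119.6 to 152.0 units) and at 72 h. Both straddled the detection limit, so the sizes of their differences are not measured exactly.

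Upstream, components of the RAS-ERK pathway gave 0 calls among 20 tested at 48 h and 1 at 72 h, DUSP3, a phosphatase of ERK and JNK, which fell by 0.37 ± 0.07 (limma adjusted p = 0.0427). Their medians were 0.02 and -0.01. Of all genes 0.292% were called lower and 0.227% higher at 48 h, and 0.365% and 0.503% at 72 h. Between plasmids 1.71% of all genes were called in either direction. GRB2, the adaptor between receptors and SOS, gave -0.21 ± 0.07 and the kinase MAP2K2 -0.23 ± 0.08 with GRHL1, and 0 of 20 were called. Transcriptional feedback targets of ERK gave 0 calls of 11 with time or plasmid, with medians of -0.09 at 48 h, -0.13 at 72 h and 0.03 between plasmids. The ETS factor ETV4 gave -0.36 ± 0.10 at 72 h (limma adjusted p = 0.13). The ternary complex, CREB and AP-1 partner factors gave 0 of 21, with medians of 0.00, -0.06 and -0.04 in the same order, and ATF2 gave -0.40 ± 0.09 at 48 h (limma adjusted p = 0.0871). The cytoskeletal genes that SRF drives with its MRTF partners gave 0 of 17, with medians of -0.04, -0.04 and 0.00, and MRTFB gave 0.47 ± 0.09 at 48 h (limma adjusted p = 0.0652). Among partners of immediate early proteins 0 of 13 were called with time, with medians of -0.05 and -0.10, and RGS4, a brake on G protein signalling, fell with GRHL1 (-0.30 ± 0.05, limma adjusted p = 0.0221), while the list's median there was 0.01.

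Genes of heat shock and handling stress were read beside FOS, KLF2 and KLF6. HMOX1, the heme oxygenase induced by oxidative stress, fell by 1.18 ± 0.13 from 24 to 48 h (limma adjusted p = 0.0068) and by 1.08 ± 0.13 to 72 h (limma adjusted p = 0.0101). It read 205.2 to 281.8 units at 24 h, 130.3 to 148.6 at 48 h and 129.4 to 162.4 at 72 h. The later readings lay close to the detection limit, so the size of the fall depends on the background correction. DDIT4, a stress-induced inhibitor of mTORC1, fell by 0.49 ± 0.07 to 48 h (limma adjusted p = 0.0141) and gave -0.18 ± 0.07 at 72 h (limma adjusted p = 0.255). The other tested genes of that list were not called, with list medians of 0.01 at 48 h and -0.05 at 72 h over 13 genes. Of all genes 0.292% were called lower at 48 h and 0.365% at 72 h. With GRHL1 the small heat shock protein HSPB1 rose by 0.45 ± 0.06 (limma adjusted p = 0.00271), and the list's median was 0.04. Between plasmids 1.71% of all genes were called in either direction. The summed level of the 12 adrenergic markers ran from 78725 to 80231 units at 24 h and from 82136 to 83908 at 72 h, and that of the 6 fibroblast markers from 2085 to 2550 and from 2126 to 2851. The sums of the 5 leukocyte markers with a probe ran from 966.3 to 1036 units at 24 h and from 954.8 to 1004 at 72 h, of the 6 epithelial markers from 697.5 to 774.6 and from 752.0 to 799.6, and of the 4 Schwann and glial markers from 418.7 to 470.9 and from 427.6 to 495.6. Within these lists ERBB3, a neuregulin receptor, was the single marker called with the plasmid (0.84 ± 0.08, limma adjusted p = 4.38e-04). Its readings, from 120.7 to 186.0 units, straddled the detection limit, so the size of its difference is not measured exactly. The part of these genes in the values of the immediate early genes was not tested.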

How the data were processed

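The authors deposited a table of normalized intensity and a table of scanner intensity for the 12 arrays, the latter with a detection p-value for each probe, per the file headers. How the first was normalized is not stated in the labels or headers. A probe counted as detected at a deposited p-value under 0.01 with a signal above its array's background, since 3416 to 4076 dim probes per array also had such a p-value. The tables' sample names conflict for 7 of 12 columns (columns were matched across the tables by rank correlation, at least 0.999974 for every match). The normalized table's names were used, a choice made with the GRHL1 probe seen. That table was corrected with limma's normexp model (offset 16) and put on the log2 scale. Probes that name 1 gene and were detected on at least 2 arrays (16501) were kept, the brightest for each of 12323 genes. Array medians ran from 119.7 to 121, 17950 to 19427 of 47323 probes were detected per array, and the number of arrays limits the precision. The detection limit of 128.5 units is the level below which 95% of undetected readings lie. The size of a dim gene's change depends on the background correction. For FOS at 72 h against 24 h it was -1.45 with the correction and -0.79 without it. The 1 missing value took its probe's median. Probes of several or no genes (8 and 17202) were left out.

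All 12 arrays were fitted with a mean for each of 6 groups (limma 3.58.1, R 4.3.3, eBayes, 6 residual degrees of freedom plus 3.72 prior ones, Benjamini-Hochberg adjustment over all genes). The members and the gene lists were chosen with earlier results of these data known. Values on every array are given for members called in any comparison and for the 6 with the smallest p in the mean GRHL1 and in the 72 h against 24 h comparison. For the lists up to 4 called genes are named, or the 2 with the smallest p where fewer than 2 were called. Not every such gene is printed. Motifs were searched in RefSeq promoter windows (GRCh38.p14). The steps were tested on simulated data. Alternatives covered background correction, offset, scaling, detection filter, probe choice, variance model and arrays fitted. They also covered the scanner table with its own sample names, the replicate block and each array left out.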

Additional observations from a re-analysis of the deposited data

How the results depend on the processing

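Counts of called genes are given in a fixed order of 14 comparisons: GRHL1 against empty vector over all times and at 24, 48 and 72 h, then 48 against 24 h, 72 against 24 h and 72 against 48 h over both plasmids, the same 3 in empty vector cells, the same 3 in GRHL1 cells, and the F test of the plasmid difference over time. They were 211, 47, 55, 40, 64, 107, 3, 1, 7, 0, 12, 26, 0 and 1 as reported. Without background correction they were 377, 107, 119, 88, 238, 381, 40, 43, 59, 3, 97, 117, 5 and 7, and with a variance trend and robust estimates 392, 123, 124, 97, 290, 453, 42, 56, 74, 4, 98, 103, 11 and 4. An offset of 50 gave 266, 85, 86, 66, 133, 181, 10, 20, 12, 1, 43, 51, 0 and 1. Probes detected on all 12 arrays gave 232, 64, 56, 50, 170, 241, 6, 26, 24, 1, 51, 54, 0 and 1, and no detection filter gave 109, 16, 34, 22, 17, 14, 0, 0, 0, 0, 1, 4, 0 and 0. Fits of the compared arrays alone, for the 12 comparisons between the first and the last, gave 10, 21, 12, 31, 27, 0, 0, 0, 0, 0, 0 and 0. With the scanner table's names 14 genes were called for 48 h and 15 for 72 h against 24 h over both plasmids, and 0 in each other comparison. Quantile scaling and equal array medians each gave 5 genes for 48 h and 0 for 72 h against 24 h in empty vector cells, where every probe as a feature gave 0 at 72 h. The mean of a gene's probes gave 3 at 48 h there and 0 in the F test. With single arrays left out the counts ran from 128 to 185, 10 to 43, 19 to 56, 18 to 42, 18 to 56, 22 to 96, 0 to 4, 0 to 1, 0 to 3, 0 to 0, 0 to 10, 1 to 26, 0 to 0 and 0 to 1.

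Of the members, 0 were called in each comparison as reported except 1 (KLF6) at 48 h and 3 (FOS, KLF2 and KLF6) at 72 h against 24 h over both plasmids. ZFP36 was called between plasmids over all times under quantile scaling (1 member) and with probes detected on all 12 arrays (1 member), and with DUSP6 (2 members) without background correction, with an offset of 50 and with a variance trend. The last 3 settings also called 1 member at 24 h (ZFP36) and 1 at 48 h (IER2), the first and the last of them 1 at 72 h (DUSP6), and probes detected on all 12 arrays called 1 at 48 h (IER2). For 48 h and 72 h against 24 h over both plasmids the members called were 5 and 7 without background correction, 5 and 7 with a variance trend, 3 and 5 with an offset of 50, 2 and 6 with probes detected on all 12 arrays, 0 and 0 without a detection filter, and 2 and 1 with the compared arrays alone. In empty vector cells these counts were 1 and 4 without background correction, 1 and 3 with a variance trend, 1 and 1 with an offset of 50 and 1 and 1 with probes detected on all 12 arrays. In GRHL1 cells they were 2 and 3, 1 and 3, 0 and 1, and 1 and 0 in the same order. With single arrays left out 0 to 1 members were called over all times, 0 to 0 at 24 h, 0 to 0 at 48 h and 0 to 1 at 72 h between plasmids, 0 to 2 at 48 h and 1 to 3 at 72 h against 24 h, 0 to 1 at 72 h in empty vector cells, 0 to 1 at each of these times in GRHL1 cells and 0 in the remaining comparisons.

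The direction turned for SPRY4 with the mean of its probes (-0.10) and, with the scanner table's names, for DUSP6 (-0.22) and IER2 (-0.01). That setting used the scanner table's intensities as well as its names, so its shifts cannot be put down to the names alone. It moved the plasmid differences of ZFP36 to 0.23, MAFF to 0.07, SPRY4 to 0.03 and KLF10 to -0.14, with their direction kept. The scanner names put arrays that read below the detection limit for GRHL1 among the GRHL1 arrays of 48 and 72 h. With those names FOS and KLF6 were still called at 72 h (limma adjusted p = 0.0325 and 0.0339), and KLF2 was not (limma adjusted p = 0.0648). The cause of these changes was not tested beyond what each setting alters. The series' design text calls the controls paired without saying what pairs them. Deviations of arrays with the same number and time correlated at 0.114 for 24 h, 0.017 for 48 h and 0.030 for 72 h. Between groups of different times the correlations ran from -0.030 to 0.060. The 24 h value lay above that range and those of 48 and 72 h within it. The samples were taken to share only a number, and what they share at 24 h was not tested. With the replicate number as a block the gene counts changed to 143, 19, 33, 29, 57, 100, 1, 1, 0, 0, 8, 22, 0 and 0. DUSP6 was then called between plasmids over all times (0.53, limma adjusted p = 0.0268), so that 1 member was called, and the block changed no other member's call. Signal over background limits FOS, FOSB, FOSL2, KLF4, KLF10, DUSP2, DUSP6, NR4A2, MAFF and CCN2, among others, whose readings lay near the detection limit. With 2 arrays a group no call was made as reported for a member at a single time or within a plasmid.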
